A study of Mus musculus with 15 samples.

Results

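Engulfment signalling and actin remodelling genes were described here as a module of 39 genes, chosen by name from what is known of how a phagocyte turns receptor binding into movement of its membrane. All 39 were matched by Ensembl identifier among the 46078 genes of the count table, and the rule that lists them uses no measured value. RNA was sequenced from the retinal pigment epithelium (RPE), whose pigmented cells remove the shed tips of photoreceptor outer segments. The mice were females of postnatal day 14, sampled from 2 hours after light onset, and all groups share a strain label that mixes c57Bl/6J with B6;129-Mertktm1Grl/J. There were 4 groups. Mertk KO (4 libraries) carries the knockout of Mertk, a receptor tyrosine kinase needed for outer segment uptake, and Mertk WT (4 libraries) is its control. Bai1 Tg pos (3 libraries) carries a transgene for Bai1, an adhesion receptor of phosphatidylserine whose gene symbol is Adgrb1, and Bai1 Tg neg (4 libraries) lacks it by its label. Both Bai1 groups are wild type for Mertk. The labels name neither the promoter of the transgene nor the number of animals behind a library. P-values therefore describe library-to-library spread, part of which may be technical.

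Receptors of dying cells and of outer segments pass their signal on through adaptors and guanine nucleotide exchange factors to small GTPases such as Rac and Cdc42. The best known route runs from Bai1 or from integrins through ELMO proteins and Dock1 to Rac1, which switches on the WAVE complex and with it the Arp2/3 complex, the nucleator of branched actin. Mertk signals as a kinase through phosphoinositide 3-kinase, phospholipase C gamma, Vav proteins, focal adhesion kinase and p130Cas, and non-muscle myosin II takes part in outer segment uptake by the RPE.

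Library totals ran from 9591129 to 20024507 counts, so 3 counts, the floor used here for an undetected gene, equal 0.15 to 0.313 CPM, the usual counts per unit of library size (here with TMM factors). Mertk itself ranged from 233 to 262 CPM in the Mertk WT libraries and from 155 to 196 CPM in the knockout (adjusted p = 0.0461, edgeR), so transcripts of the gene were still counted in the knockout. The counts sum all exons, and the labels do not say which exons the allele removes. Adgrb1 stood at 166 to 170 CPM in Bai1 Tg pos. It was at 0 to 0.14 CPM in 3 of the 4 Bai1 Tg neg libraries, but at 144 CPM in the library labelled Bai1 Tg neg 4. That library goes against its label, and the Bai1 results on the module are given with and without it. The 10 RPE markers summed to 41732 to 49085 CPM over the 15 libraries. The 14 rod photoreceptor markers reported here summed to 647 to 2353 CPM in Mertk WT, 708 to 1126 CPM in Mertk KO, 207 to 372 CPM in Bai1 Tg neg and 241 to 558 CPM in Bai1 Tg pos. The 12 microglia and macrophage markers summed to 6.54 to 8.88 CPM in Mertk WT and 6.37 to 13.4 CPM in Mertk KO. They summed to 11.2 to 16.8 CPM in Bai1 Tg neg, above all of Mertk WT, and 10.4 to 16.1 CPM in Bai1 Tg pos. The markers did not move as a set. In Bai1 Tg neg 6 of the 12 (Aif1, Cx3cr1, Itgam, Ptprc, C1qa and Trem2) were at 0 in every library, against 1, Trem2, in Mertk WT. In each of these 2 groups 11 of the 12 stayed under 1 CPM in every library. Only 1 of the 12 could be tested between Mertk WT and Bai1 Tg neg, and it was higher in Bai1 Tg neg (log2 fold change 1.11, adjusted p = 0.0263, edgeR). In whole-tissue RNA of this kind, fewer cells of a type and less RNA per cell cannot be told apart.

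The RPE held nearly the whole module. Mean levels over the 15 libraries, given as fragments per kilobase of summed exon length at the scale of CPM (FPKM) wherever genes are compared with each other, were at least 1 FPKM for 36 of the 39 genes, at least 10 FPKM for 28 and at least 100 FPKM for 3. The median gene of the module stood at 18.5 FPKM, beside 4.75 FPKM over the 14548 genes tested in at least 1 comparison. Most of those 14548 genes also reached 1 FPKM. Only 30.1% of them lay below Vav2, at 1.71 FPKM the lowest gene of the module past that level. Ezr, which encodes ezrin, the linker of membrane to actin in RPE microvilli, led with 416 ± 31.8 FPKM (SD, n = 15). Cfl1, the actin-severing protein cofilin 1, followed with 207 ± 9.22 FPKM, and its lowest library (195 FPKM) lay above the highest library of every gene ranked after it. Bcar1, the adaptor p130Cas, at 110.4 ± 14.4 FPKM and the GTPase Cdc42 at 97.1 ± 7.86 FPKM came next, and their ranges over libraries overlapped. At the other end stood Dock4 at 0.378 ± 0.176 FPKM, Vav3 at 0.0601 ± 0.0599 FPKM and Elmo1 at 0.0507 ± 0.0374 FPKM.

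**Figure D1:**
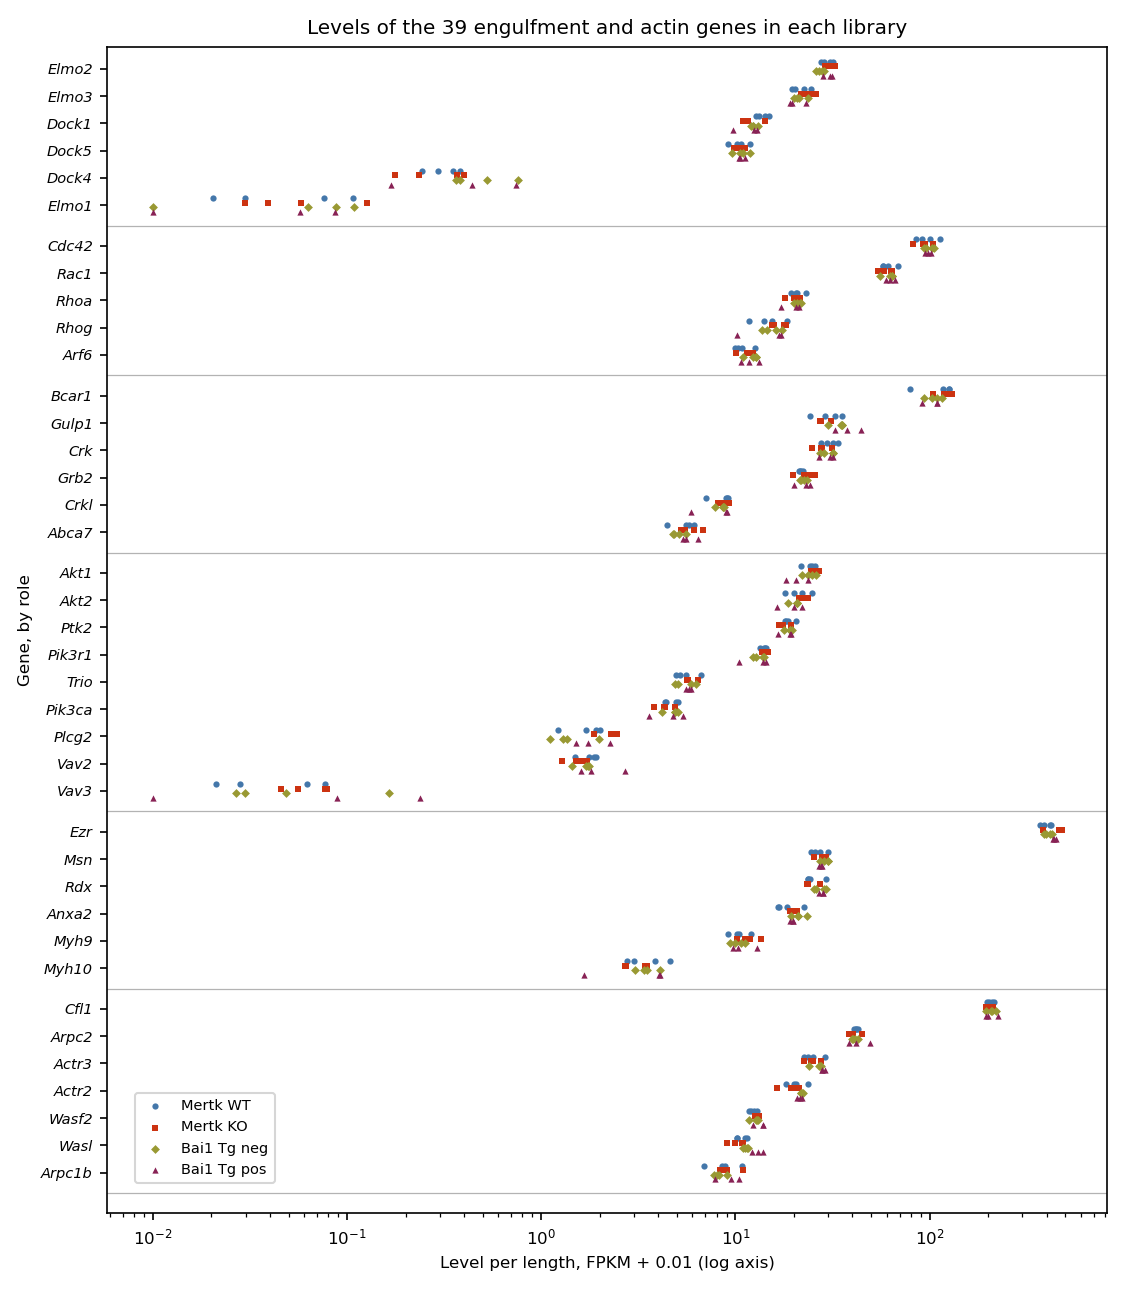
Level of each of the 39 genes in each library, as FPKM plus 0.01 on a log axis, ordered by role, with 1 point per library coloured by group. The points of the 4 groups lie on top of each other for most genes, Ezr and Cfl1 stand highest, and Elmo1, Vav3 and Dock4 lie below 1 FPKM.

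In the ELMO and DOCK scaffold, the bipartite exchange factor that loads Rac1 with GTP, the RNA levels of the paralogs differed widely. Elmo2 (chromosome 2, 165288031 to 165326479, GRCm38) stood at 29.5 ± 2.05 FPKM and Elmo3 at 21.9 ± 2.06 FPKM. Elmo1, the member most often studied in macrophages, was at 0 to 22 counts per library. Elmo2 made up 57.3% ± 2.45 of the summed FPKM of the ELMO family (SD, n = 15), Elmo3 42.6% ± 2.45 and Elmo1 0.10% ± 0.07, and Elmo2 held more than Elmo3 in each library, its lowest share being 52.1%. Dock1, the classical ELMO partner also called Dock180, stood at 12.5 ± 1.37 FPKM and Dock5 at 10.6 ± 0.746 FPKM. Both stood below the Cdc42 activator Dock9 at 20.7 ± 1.49 FPKM.

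Of the 5 small GTPases of the module, Cdc42 and Rac1 (61.2 ± 3.97 FPKM) were the most abundant, ahead of Rhoa (20.4 ± 1.46 FPKM), the regulator of contractility, Rhog (15.5 ± 2.39 FPKM), which recruits ELMO to the membrane, and Arf6 (11.6 ± 1.08 FPKM), which directs membrane to the forming cup. Rac1 held 97.8% ± 0.876 of the summed FPKM of the Rac genes, while Rac2, the Rac of blood cells, was at 0 to 4 counts per library. Rhoa held only 8.61% ± 1.52 of the summed FPKM of Rhoa, Rhob and Rhoc, beside Rhoc at 116 ± 10.3 FPKM and Rhob at 106 ± 34.3 FPKM. Rac1 shares 51.4% of its exon length with Daglb on the opposite strand, and the authors' counting command, which used no strand, holds no option for fragments that overlap more than 1 gene. Its level per length is less certain than the others for this reason.

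The adaptors were Bcar1, Gulp1 (32.3 ± 5.08 FPKM), the mammalian homologue of the worm engulfment adaptor CED-6, Crk (29.5 ± 2.47 FPKM), which couples p130Cas to Dock1, Grb2 (22.3 ± 1.56 FPKM) and Crkl (8.44 ± 0.899 FPKM). Crk held 77.8% ± 1.75 of the summed FPKM of Crk and Crkl. Abca7, a relative of the worm engulfment transporter CED-7, stood at 5.53 ± 0.634 FPKM.

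In the kinase and lipid branch, Akt1 (24 ± 2.47 FPKM) and Akt2 (20.9 ± 2.16 FPKM), kinases downstream of phosphoinositide 3-kinase, overlapped in FPKM between libraries. The regulatory subunit Pik3r1 (13.6 ± 1.08 FPKM) likewise overlapped Pik3r2 (14.5 ± 2.42 FPKM) and Pik3r3 (14.8 ± 1.91 FPKM). Of the catalytic subunits, Pik3ca (4.57 ± 0.496 FPKM) held 27.1% ± 3.14 of the summed FPKM and Pik3cb 72.5% ± 3.04. Plcg2 stood at 1.79 ± 0.434 FPKM and made up 6.93% ± 1.71 of the phospholipase C gamma genes, with Plcg1 taking the rest. Ptk2, focal adhesion kinase, stood at 18.5 ± 1.11 FPKM and held 99.7% ± 0.188 against its relative Ptk2b. Among the exchange factors, Trio was at 5.65 ± 0.511 FPKM and Vav2 at 1.71 ± 0.322 FPKM, which was 96.5% ± 2.63 of the Vav genes. Vav3, by contrast, had 0 to 14 counts per library and Vav1 had 0 to 1.

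For the linkers and motors, Ezr held 88.5% ± 1.11 of the summed FPKM of the ERM genes, against Msn (moesin) at 27.8 ± 1.67 FPKM and Rdx (radixin) at 26.1 ± 2.27 FPKM. Myh9, the heavy chain of non-muscle myosin IIA, stood at 10.8 ± 1.27 FPKM and Myh10, that of myosin IIB, at 3.35 ± 0.743 FPKM. Both were well below Myh14, the heavy chain of myosin IIC, at 58.4 ± 9.22 FPKM, which held 80.3% ± 1.83 of the 3. Anxa2, an annexin found on early phagosomes of the RPE, stood at 19.8 ± 1.81 FPKM and was below Anxa5 (45 ± 2.06 FPKM) and Anxa6 (35.9 ± 2.13 FPKM).

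In the actin nucleation group, the Arp2/3 subunits Arpc2 (41.5 ± 2.71 FPKM), Actr3 (26 ± 2.25 FPKM) and Actr2 (20.7 ± 1.81 FPKM) stood above Arpc5l, the lowest subunit at 7.5 FPKM. Arpc2 was above all the others in each library, its lowest value being 38.4 FPKM against 30.6 FPKM for the highest of Arpc1a. Arpc1b, at 8.84 ± 1.14 FPKM, held 23.9% ± 2.69 of the summed FPKM of the interchangeable Arpc1 subunits, the rest being Arpc1a. Of Arpc1b's exon length, 18.2% overlaps Pdap1 on the opposite strand. Wasf2, of the WAVE complex, stood at 12.8 ± 0.66 FPKM (75.3% ± 3.25 of the WAVE genes), and Wasl, which encodes N-WASP, at 11.2 ± 1.21 FPKM, while its blood-cell relative Was was at 0 to 1 count per library. Cfl1 held 64.8% ± 2.44 of the summed FPKM of Cfl1, Cfl2 and Dstn.

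**Figure D2:**
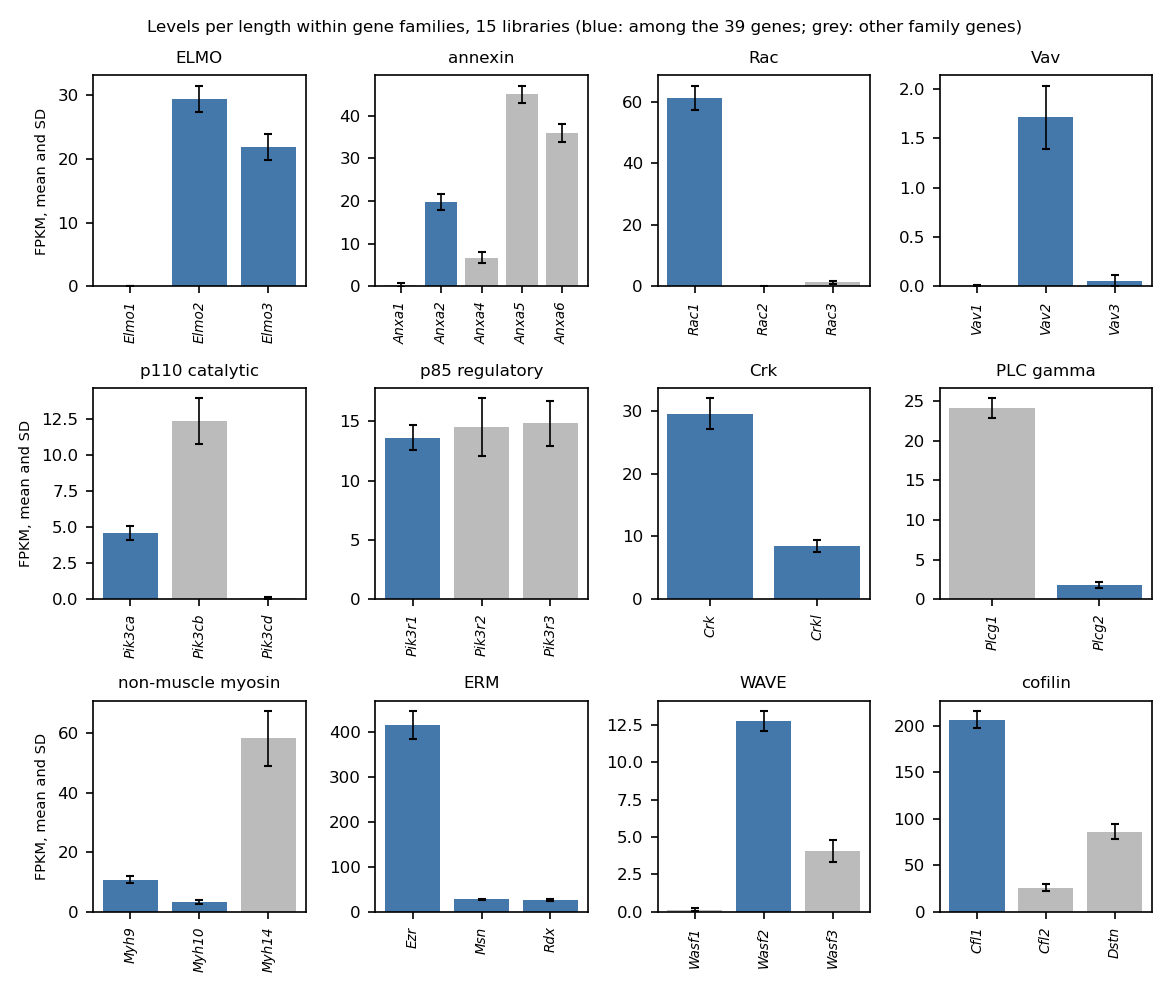
Mean FPKM (bars, starting at 0) and SD over 15 libraries (lines) for the genes of 12 families, with genes of the 39 in blue and their listed relatives in grey. Elmo1, Vav3, Plcg2, Pik3ca and Myh10 are low bars in their families, whereas Elmo2, Rac1, Vav2, Crk, Ezr, Wasf2 and Cfl1 are the highest of theirs.

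Whether these genes differ once Mertk is disrupted was asked by setting Mertk KO against Mertk WT. None of the 37 genes tested passed an adjusted p of 0.05 in edgeR's quasi-likelihood test, in which 0.223% of 13447 genes passed. None had an unadjusted p under 0.05 either, beside 5.58% of all genes, and DESeq2 gave 0 adjusted and 0 unadjusted calls, limma-voom 0 adjusted and 2 unadjusted. Log2 fold changes ran from -0.22 for Myh10 to 0.38 for Plcg2, with a median of 0.02 beside 0.00 over all genes. In no case were the 2 groups of libraries fully apart in CPM, beside 3.52% of genes. Elmo1 and Vav3 were too low to be tested.

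The same question for Bai1 was asked by setting Bai1 Tg pos against Bai1 Tg neg. Of 38 genes tested, none passed an adjusted p of 0.05 in edgeR's test (0.0144% of 13855 genes did), and 2, Wasl and Akt1, had an unadjusted p under 0.05, beside 5.18% of all genes. DESeq2 gave 0 adjusted and 3 unadjusted calls, and limma-voom 0 and 4. The log2 fold changes ran from -0.41 for the barely detected Elmo1 to 0.36 for Plcg2, with a median of -0.01 beside 0.00 over all genes. Groups were fully apart for 3 genes, Wasl, Ezr and Actr3, all higher in Bai1 Tg pos. Over all genes 6.2% were apart in either direction and 2.79% were higher. Without Bai1 Tg neg 4, none of 37 genes passed (smallest adjusted p = 0.988, edgeR), the median was 0.00, and Akt1 and Abca7 were apart as well, which made 5 of 38 genes beside 10.3% of all.

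**Figure D3:**
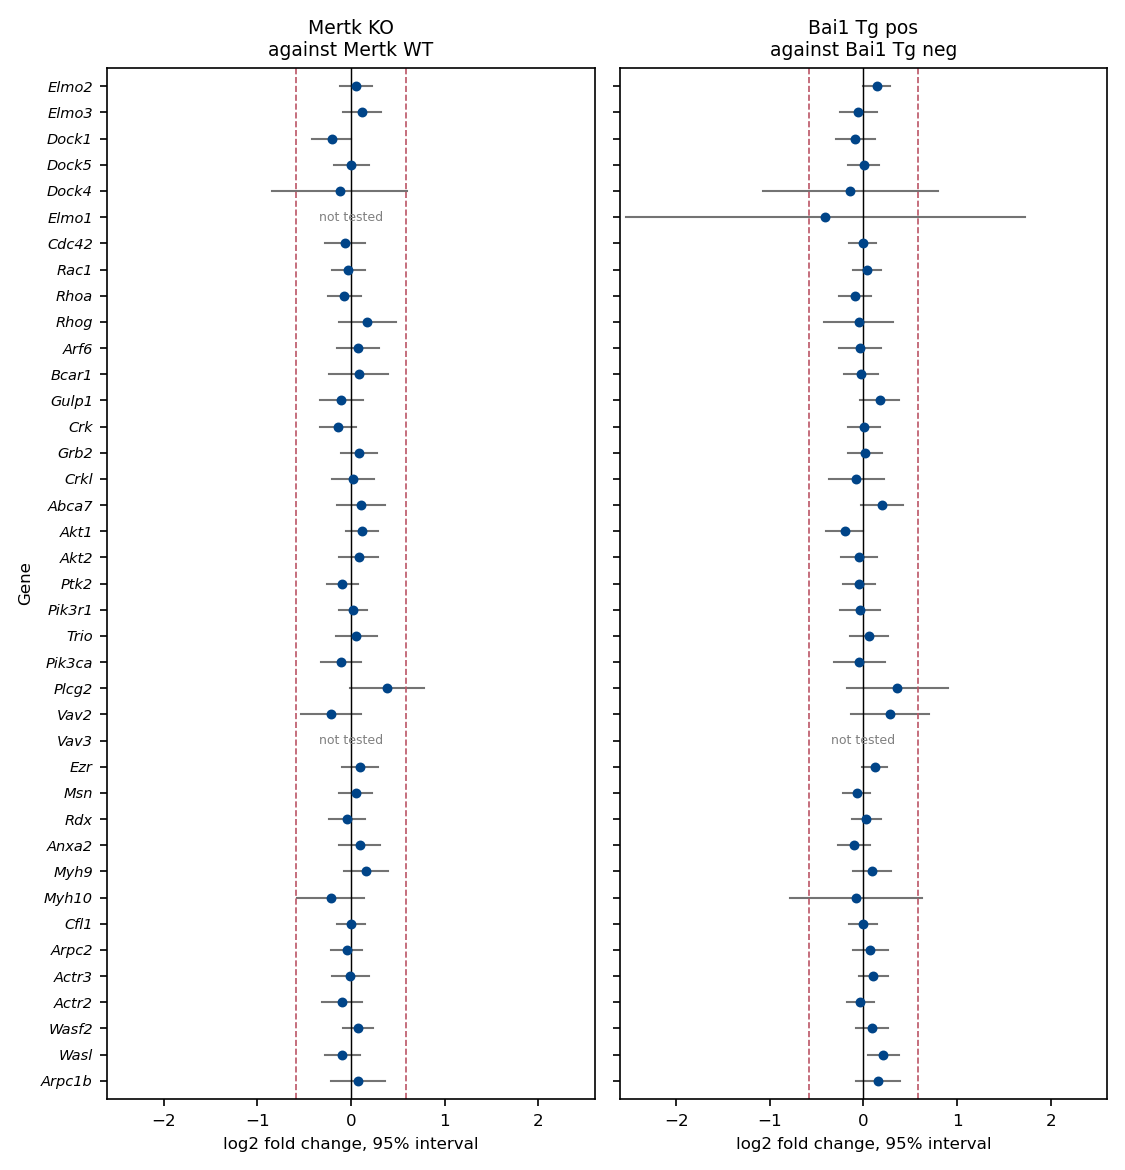
Log2 fold change (points) and 95% interval (lines) of each gene for Mertk KO against Mertk WT and for Bai1 Tg pos against Bai1 Tg neg, from edgeR, with dashed lines at 1.5-fold in either direction. Most intervals include 0 and lie between the dashed lines, and the widest belong to the genes of lowest counts, Elmo1, Dock4, Plcg2 and Vav2, and to Myh10.

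The intervals put a bound on what could have been missed. In the Mertk comparison the 95% interval of the difference lay within 1.5-fold of no difference for 35 of 37 genes, beside 63.5% of all genes tested. In the Bai1 comparison this held for 33 of 38 genes, beside 59.6%. Precision depends on the level of a gene: among genes of 20 to 2000 CPM it held for 34 of 34 module genes and 92.1% of genes in the Mertk comparison. Among the same genes it held for 33 of 34 and 95.8% in the Bai1 comparison, the exception being Myh10. Without Bai1 Tg neg 4 the Bai1 interval lay within 1.5-fold for 33 of 37 genes, beside 57.2%, and for 33 of 34 genes of 20 to 2000 CPM, beside 93.9%. The interval that stayed nearest to no difference was that of Cfl1 under Mertk loss, from 0.903 to 1.11-fold. In the Bai1 comparison it was that of Cdc42, which reached at most 1.11-fold in either direction. The intervals of Dock4 and Plcg2 reached beyond 1.5-fold in both comparisons, and those of Vav2, Elmo1 and Myh10 in the Bai1 comparison. A difference of this size was therefore not excluded for them in these libraries. Dock4, Plcg2, Vav2 and Elmo1 have low counts, whereas Myh10 had the highest spread between libraries of the well-counted genes.

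In the scaffold, Dock1 (chromosome 7, 134670687 to 135173639) had the smallest p of the module under Mertk loss. It was counted at 90.2, 96.2, 101 and 86.4 CPM in Mertk WT, 74.2, 79.2, 96.9 and 74.6 CPM in Mertk KO, 83.3, 83.5, 81.4 and 89.3 CPM in Bai1 Tg neg and 88, 84.7 and 65.7 CPM in Bai1 Tg pos. Of the Mertk KO libraries, 3 lay below every Mertk WT library and Mertk KO 3 lay among them. The log2 fold change was -0.21 (SE 0.098, adjusted p = 0.893, edgeR). It was -0.30 without Mertk KO 3, with an adjusted p of 0.525, the lowest of 16 alternatives whose adjusted p reached 1.00. In the Bai1 comparison the value for Dock1 was -0.08, or -0.06 without Bai1 Tg neg 4, and it turned to 0.04 without Bai1 Tg pos 3.

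Elmo2 stood at 189.7, 205, 183 and 212 CPM in Mertk WT, 192, 201, 217 and 213 CPM in Mertk KO, 179, 189, 172 and 186 CPM in Bai1 Tg neg and 204, 209 and 188 CPM in Bai1 Tg pos. The 2 Mertk groups overlapped throughout, and only Bai1 Tg pos 3 fell within the range of Bai1 Tg neg. Log2 fold changes of Elmo2 were 0.05 (SE 0.077) under Mertk loss and 0.14 (SE 0.067, adjusted p = 0.948, edgeR) for Bai1, or 0.16 without Bai1 Tg neg 4. Elmo2 lies on the chromosome of Mertk, 36.5 Mb away. Elmo3, Dock5 and Dock4 had log2 fold changes between -0.14 and 0.12 in both comparisons, Dock4 with standard errors of 0.333 and 0.436. Without Bai1 Tg neg 4 the Bai1 value of Dock4 was -0.26.

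Among the GTPases, Cdc42 was at 252, 335, 298 and 272 CPM in Mertk WT, 309, 282, 275 and 244 CPM in Mertk KO, 277, 284, 304 and 312 CPM in Bai1 Tg neg and 302, 292 and 281 CPM in Bai1 Tg pos, with overlap between all groups. Its log2 fold changes were -0.07 (SE 0.097) and -0.01 (SE 0.066), the latter 0.02 without Bai1 Tg neg 4. Rac1, the point where the pathways meet, gave -0.03 (SE 0.082) under Mertk loss and 0.03 (SE 0.070) for Bai1, so that the 95% intervals ran from 0.867 to 1.11-fold and from 0.923 to 1.13-fold. The Bai1 value of Rac1 was 0.05 without Bai1 Tg neg 4. Rhog, which had the smallest p of the GTPases under Mertk loss, stood at 25, 15.9, 19 and 20.8 CPM in Mertk WT, 24.1, 21.5, 20.9 and 24.8 CPM in Mertk KO, 23.6, 19.8, 21.9 and 18.5 CPM in Bai1 Tg neg and 13.7, 22.8 and 23.3 CPM in Bai1 Tg pos. Every group of Rhog overlapped the others, and the log2 fold changes were 0.17 (SE 0.140, adjusted p = 0.912, edgeR) and -0.05 (SE 0.171), or -0.11 without Bai1 Tg neg 4. Rhoa and Arf6 lay between -0.09 and 0.08 in both comparisons.

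Of the adaptors, Bcar1 was counted at 399, 252, 370.5 and 399 CPM in Mertk WT, 331, 375, 415 and 388 CPM in Mertk KO, 346, 327, 368 and 296 CPM in Bai1 Tg neg and 346, 290.4 and 346 CPM in Bai1 Tg pos. Mertk WT 2 was the lowest of all 15, and no groups were apart. The log2 fold change under Mertk loss was 0.08 (SE 0.143), and it was -0.06 without Mertk WT 2. That library also had the highest summed rod markers, 2353 CPM. With the rod marker level as a covariate, 0 of the 37 genes passed in the Mertk comparison (smallest adjusted p = 0.994, edgeR). Over 16 alternatives, that fit among them, the Bcar1 value ran from -0.06 to 0.15. The part of rod cells in the Bcar1 value was not tested beyond that fit. Abca7 stood at 37.4, 29.9, 41.2 and 38.8 CPM in Mertk WT, 35.4, 45.7, 36.8 and 41.1 CPM in Mertk KO, 32.6, 34.6, 32 and 37.3 CPM in Bai1 Tg neg and 36.3, 37.5 and 43.4 CPM in Bai1 Tg pos. Its Bai1 Tg pos libraries lay above all Bai1 Tg neg libraries but the library labelled Bai1 Tg neg 4. For Abca7 the Bai1 value was 0.20 on the log2 scale (SE 0.105, adjusted p = 0.958, edgeR), and 0.25 without that library. Gulp1 had log2 fold changes of -0.10 (SE 0.106) and 0.18 (SE 0.098), the latter being 0.20 without Bai1 Tg neg 4 and 0.05 without Bai1 Tg pos 1, its highest library at 166 CPM. Crk, Crkl and Grb2 lay between -0.14 and 0.08.

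In the kinase and lipid branch, Akt1 (chromosome 12, 112653821 to 112674884) was at 105, 88.6, 101 and 99 CPM in Mertk WT, 100.5, 109.5, 111 and 108 CPM in Mertk KO, 101, 97.3, 106 and 90.1 CPM in Bai1 Tg neg and 74.9, 83.8 and 97.2 CPM in Bai1 Tg pos. Bai1 Tg pos 1 and 2 lay below all other libraries, and Bai1 Tg pos 3 lay within the range of Bai1 Tg neg. The log2 fold change for Bai1 was -0.20 (SE 0.093, adjusted p = 0.948, edgeR) and -0.24 without Bai1 Tg neg 4. Leaving out Bai1 Tg pos 3 gave -0.31 with an adjusted p of 0.247, and leaving out Bai1 Tg pos 1 gave -0.12; over 14 alternatives the adjusted p ran from 0.247 to 1.00. Under Mertk loss Akt1 had a log2 fold change of 0.12 (SE 0.079).

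Plcg2 stood at 8.54, 8.17, 5.21 and 7.28 CPM in Mertk WT, 7.95, 10.1, 10.5 and 9.73 CPM in Mertk KO, 4.7, 5.78, 8.51 and 5.49 CPM in Bai1 Tg neg and 7.46, 6.42 and 9.61 CPM in Bai1 Tg pos. All Mertk KO libraries but the first replicate lay above every Mertk WT library. The log2 fold changes were 0.38 (SE 0.184, adjusted p = 0.893, edgeR) and 0.36 (SE 0.25), the largest of the module apart from Elmo1, on 61 to 180 counts per library. The second was 0.31 without Bai1 Tg neg 4. Vav2, the other gene on chromosome 2 (101 Mb from Mertk), gave -0.21 (SE 0.146) and 0.28 (SE 0.194). The Bai1 value of Vav2 was 0.31 without Bai1 Tg neg 4 and 0.03 without Bai1 Tg pos 1. Ptk2, Trio, Pik3r1, Pik3ca and Akt2 lay between -0.11 and 0.08 in both comparisons.

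Ezr, in the linker group, stood at 1379.9, 1273, 1369 and 1219 CPM in Mertk WT, 1267, 1525, 1572 and 1254 CPM in Mertk KO, 1272, 1303, 1397 and 1366 CPM in Bai1 Tg neg and 1445, 1467 and 1423 CPM in Bai1 Tg pos. Bai1 Tg pos was above each Bai1 Tg neg library, by a small margin, while the 2 highest libraries of all were Mertk KO 2 and 3. The log2 fold change for Bai1 was 0.12 (SE 0.060, adjusted p = 0.948, edgeR), or 0.13 without Bai1 Tg neg 4, and for Mertk it was 0.09 (SE 0.090). Myh9 was at 132, 118, 134 and 155 CPM in Mertk WT, 132, 144, 175 and 154 CPM in Mertk KO, 122, 138, 129 and 144 CPM in Bai1 Tg neg and 132, 125 and 166 CPM in Bai1 Tg pos, with overlap in both comparisons and log2 fold changes of 0.16 (SE 0.107) and 0.09 (SE 0.096). The Bai1 value of Myh9 was 0.13 without Bai1 Tg neg 4 and -0.05 without Bai1 Tg pos 3.

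Myh10 was the least even of the well-counted genes, with 48.2, 28.9, 40.3 and 31.3 CPM in Mertk WT, 35.5, 28.1, 36.6 and 28.4 CPM in Mertk KO, 36.5, 42.7, 35.3 and 31.8 CPM in Bai1 Tg neg and 17.3, 42.7 and 42.1 CPM in Bai1 Tg pos. Bai1 Tg pos 1, a library of 10180627 counts, held 17.3 CPM, the lowest of all. The log2 fold changes were -0.22 (SE 0.164) and -0.08 (SE 0.297), and the second was -0.15 without Bai1 Tg neg 4 and 0.22 without Bai1 Tg pos 1. Markers of smooth muscle, pericytes and fibroblasts, cells that also use non-muscle myosin, summed to 257 to 306 CPM in Bai1 Tg neg. They summed to 322 to 516 CPM in Bai1 Tg pos, where 1 of the 11, Cnn1, was at 0. Of the 8 tested for Bai1, 6 were higher and 2 lower in Bai1 Tg pos. Their log2 fold changes ran from -0.76 to 5.46, and 0 passed the threshold in edgeR. The part of these cells in the linker values was not tested. Anxa2, Msn and Rdx lay between -0.10 and 0.09.

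Wasl (chromosome 6, 24613805 to 24665009) had the smallest p of the module for Bai1. It stood at 62.9, 69.3, 70.6 and 62.9 CPM in Mertk WT, 66.4, 67.2, 55.4 and 61.3 CPM in Mertk KO, 71.2, 70.5, 69 and 67.2 CPM in Bai1 Tg neg and 85.3, 80.9 and 74.6 CPM in Bai1 Tg pos. All 3 Bai1 Tg pos libraries lay above the other 12 libraries. For Wasl the log2 fold change was 0.21 (SE 0.079, adjusted p = 0.948, edgeR), a ratio of 1.16 with a 95% interval from 1.03 to 1.30. It was 0.20 without Bai1 Tg neg 4, and over 14 alternatives it ran from 0.16 to 0.26 with adjusted p from 0.287 to 1.00. Under Mertk loss the value was -0.09 (SE 0.086).

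Cfl1 had the smallest difference of the module under Mertk loss and stood at 226, 247, 231 and 239 CPM in Mertk WT, 224, 242, 245 and 238 CPM in Mertk KO, 224, 238, 252 and 241 CPM in Bai1 Tg neg and 224, 229 and 257 CPM in Bai1 Tg pos. Its log2 fold changes were 0.00 (SE 0.069) and -0.01 (SE 0.070), the latter -0.00 without Bai1 Tg neg 4, and the groups overlapped. Actr3 was at 129.8, 129.8 and 134 CPM in Bai1 Tg pos against 127, 126, 111 and 125 CPM in Bai1 Tg neg, which differ by 0.11 on the log2 scale (SE 0.071, adjusted p = 0.958, edgeR), and 0.12 without Bai1 Tg neg 4. Mertk WT 2, at 133 CPM, exceeded 2 of these 3 libraries. Wasf2, Arpc1b, Arpc2 and Actr2 lay between -0.10 and 0.16, and Arpc1b had the highest of these values.

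**Figure D4:**
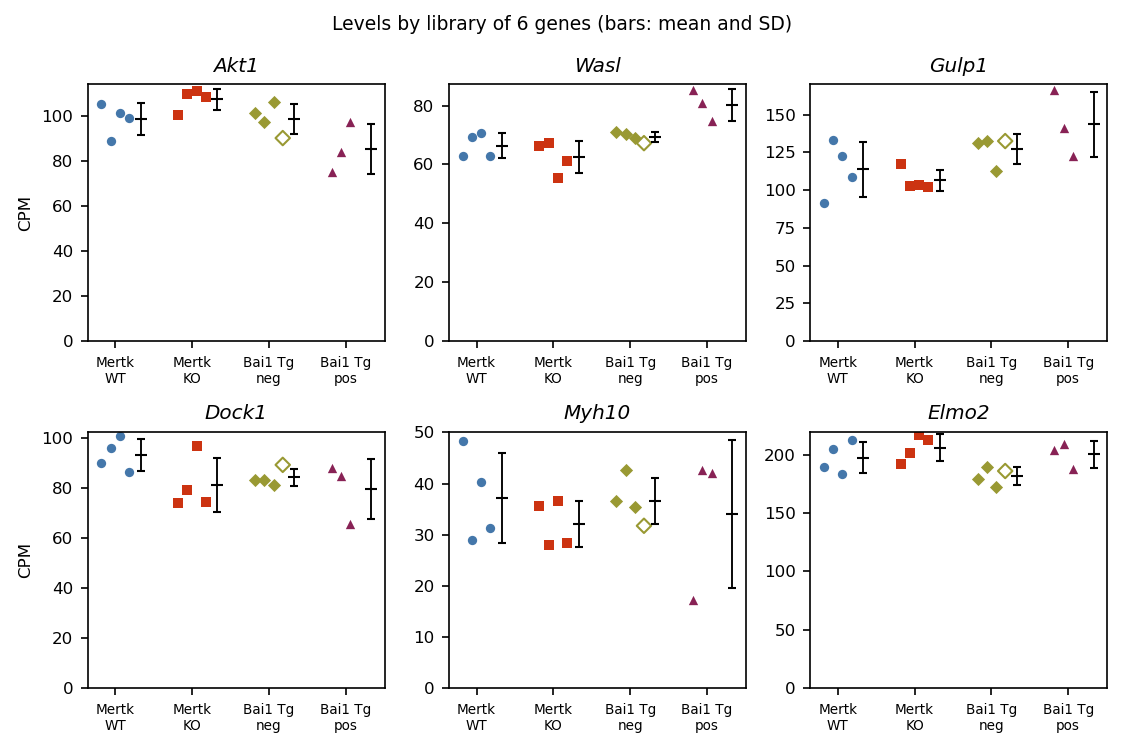
CPM in each library by group for Akt1, Wasl, Gulp1, Dock1, Myh10 and Elmo2, with 1 point per library and the library labelled Bai1 Tg neg 4 as an open diamond. The Bai1 Tg pos points of Wasl (74.6 to 85.3 CPM) lie above all others, whereas 1 point of Myh10 (17.3 CPM) lies below all others.

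Whether a gene responded differently to Mertk loss and to Bai1 was tested as the difference of the effects over all 15 libraries, Bai1 minus Mertk. None of 38 genes passed an adjusted p of 0.05 in edgeR (0.103% of 14520 genes did). An unadjusted p under 0.05 was found for 2 genes, beside 7.53% of all genes and 2 by DESeq2. These were Wasl, at 0.30 (SE 0.113, adjusted p = 0.489, edgeR), and Akt1, at -0.32 (SE 0.124, adjusted p = 0.514, edgeR). Without Bai1 Tg neg 4 the values were 0.29 and -0.36. The interval of the difference lay within 1.5-fold for 31 of 38 genes, beside 41.2% of all genes. Among genes of 20 to 2000 CPM this held for 31 of 34, the exceptions being Gulp1, Myh10 and Rhog, beside 77.1% of all genes in that range. Without Bai1 Tg neg 4 the counts were 30 of 38, beside 38.5%, and 30 of 34, beside 72.8%.

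Mertk WT and Bai1 Tg neg are both wild type for Mertk and without the transgene by label, and the first of the 2 tag numbers in their descriptions, 17 or 21 against 12, separates them fully, so that group, background and handling cannot be told apart. They show how far these genes lie apart without a labelled difference in genotype. None of 37 genes passed in edgeR (0.431% of 13459 genes did), and 1, Dock4, had an unadjusted p under 0.05, beside 7.99% of all genes, 1 by DESeq2 and 3 by limma-voom. Dock4 stood at 1.88, 3, 2.74 and 2.29 CPM in Mertk WT and 4.16, 6.02, 2.84 and 3 CPM in Bai1 Tg neg, which overlapped. The difference was 0.68 on the log2 scale (SE 0.292, adjusted p = 0.556, edgeR), and 0.80 without Bai1 Tg neg 4. The median over the module was 0.01 and no groups were apart, beside 5.74% of genes. The interval lay within 1.5-fold for 35 of 37 genes, beside 66.3% of all, and for 35 of 37 without Bai1 Tg neg 4, beside 62.2%. Among genes of 20 to 2000 CPM this held for 34 of 34, beside 95% of all genes in that range. Without Bai1 Tg neg 4 it held for 34 of 34, beside 93.3%. The 14 rod markers had a median log2 fold change of -3.80 in the same comparison.

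Spread within groups was near that of all genes in a broad range of levels. The median SD within groups of log2(CPM + 0.5) was 0.122 over the 34 genes of the module at 20 to 2000 CPM. It was 0.139 over 6927 genes of that range, which were not matched further by level. In the module Wasf2, at 0.0669, varied least and Myh10, at 0.385, most. The highest group mean exceeded the lowest by more than 25% for 3 of the 34 genes (8.82%), beside 14.8% of the 6927. These were Gulp1 (1.35 times), Wasl (1.28 times) and Akt1 (1.26 times). In all 3 genes it was Bai1 Tg pos and Mertk KO that formed the extremes. Gulp1 stood at 144 ± 21.8 CPM (SD, n = 3) in Bai1 Tg pos and 106 ± 7.18 CPM (SD, n = 4) in Mertk KO.

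**Figure D5:**
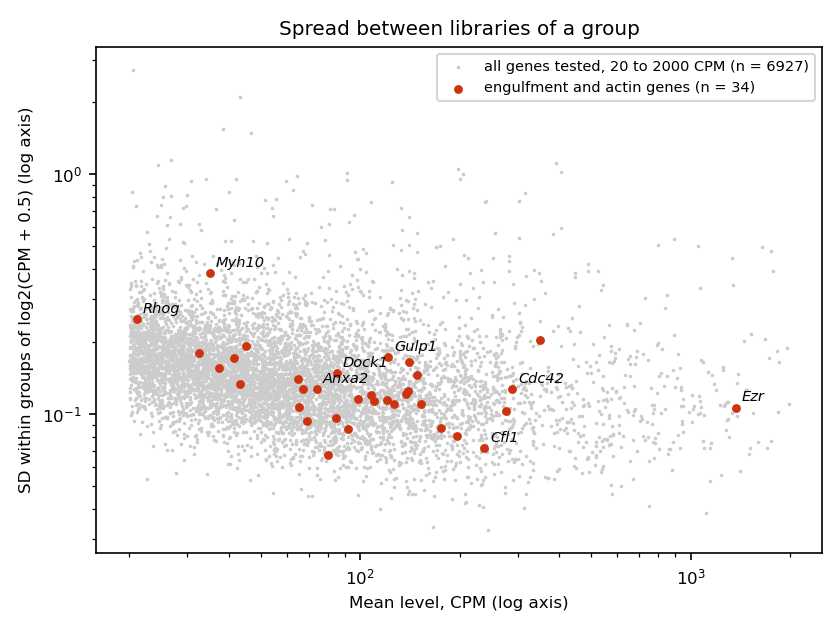
SD within groups of log2(CPM + 0.5) against mean CPM on a log axis, for 6927 genes of 20 to 2000 CPM (grey) and the 34 genes of the module in that range (red). The red points lie among the grey ones, mostly in their lower part, with Myh10 highest at 0.385.

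Around the module, 113 further genes of the pathway were listed, namely other Rac exchange factors and regulators, other kinases and lipid enzymes, other WAVE, WASP and Arp2/3 subunits, and other actin, myosin and membrane linkers. Under Mertk loss 0 of the 102 tested passed, and 5 (4.90%) had an unadjusted p under 0.05 in edgeR, beside 0.223% and 5.58% of all genes. For Bai1 0 of 103 passed and 9 (8.74%) had an unadjusted p under 0.05, beside 0.0144% and 5.18%. The gene nearest to the threshold under Mertk loss was Rhoq, which encodes the Cdc42 relative TC10. Mertk WT held 127, 158, 120.2 and 151 CPM of Rhoq, and Mertk KO held 111, 102, 95.2 and 99.7 CPM, with no overlap, and a log2 difference of -0.45 (SE 0.095, adjusted p = 0.116, edgeR), and it passed in 2 of 16 alternatives, DESeq2 (adjusted p = 0.0096) and edgeR with no low-count filter (adjusted p = 0.00971). Between the control sets 1 of 102 passed and 9 (8.82%) had an unadjusted p under 0.05, beside 0.431% and 7.99% of all genes. This was Mylk, myosin light chain kinase, a gene abundant in smooth muscle, lower in Bai1 Tg neg at 0.497 to 2.5 CPM than in Mertk WT at 5.2 to 12.5 CPM (log2 fold change -2.52, adjusted p = 0.0429, edgeR). The call was lost in 8 of 15 alternatives, in which the adjusted p of Mylk ranged up to 0.711, the value with the rod marker level as a covariate (log2 fold change -1.51, edgeR). The rod marker level separated these groups fully and 0 of 13459 genes passed in that fit, so it cannot tell rod marker level from group. The call was also lost without Mertk WT 2 (0.0627), Mertk WT 3 (0.0917), Bai1 Tg neg 1 (0.165) or Bai1 Tg neg 2 (0.215), and was kept at 0.0469 without Bai1 Tg neg 4. The level of Mylk in Bai1 Tg pos was 19.5, 75.6 and 3.2 CPM. For the difference of the effects 0 of 106 passed and 9 (8.49%) had an unadjusted p under 0.05, beside 0.103% and 7.53% of all genes.

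Upstream of the module, Tyro3, the receptor related to Mertk, averaged 57.6 ± 9.87 CPM in the knockout and 206 ± 22.2 CPM in its control (SD, n = 4 each, adjusted p = 2.65e-05, edgeR). Loss of Mertk and strain background carried with the knockout allele cannot be told apart in these groups, and neither was tested as the source. The alpha-v and beta-5 integrin genes, whose product binds outer segments, overlapped between these groups. Itgav averaged 637 ± 25.1 CPM in Mertk KO against 662 ± 67.2 CPM in the control, and Itgb5 averaged 359 ± 21.4 CPM against 325 ± 48.9 CPM.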

How the data were processed

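Per the labels, RNA of RPE was made into poly-A libraries. Per the file headers, the authors deposited raw counts per gene from featureCounts 1.5.0 with both read ends required and no strand, and GRCm38 and STAR are named in the submitters' processing notes. No value was normalized by the authors. The table was taken as deposited, and symbols were matched for 45143 of 46078 genes, which hold 99.9% of the counts. CPM used TMM factors, and FPKM divided CPM by the deposited summed exon length. Comparisons were fitted in edgeR 4.0.16 (R 4.3.3; quasi-likelihood, robust, filterByExpr), two-sided, with Benjamini-Hochberg adjustment over all genes tested and a threshold of 0.05. Intervals are 95% intervals of the fitted log2 fold change. DESeq2 1.42.0, limma 3.58.1 (voom with quality weights), other scalings and filters, covariates, a replicate block and leaving out each library were alternatives. The scripts were tested on simulated counts. Gene copies were searched with blastn 2.17.0 (95% identity over 150 bases).

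The genes and lists were chosen with earlier results of these data known, and families were put together after levels were seen. Values in every library are given for up to 2 genes per role with the smallest p or highest level per length, and pathway genes are named where they passed. Gulp1, Myh10, Dock4, Actr3, Rac1, Rhoq, Itgav, Itgb5 and the family relatives lie outside that rule, and their values were known when they were picked. No 2 libraries agreed within sampling noise (lowest chi-square per degree of freedom 5.28). Same-numbered libraries deviated together in some pairs only (correlations -0.11 to 0.24 for Mertk, -0.00 to 0.01 for Bai1), so the numbers were not taken to pair them. The floor of 3 counts covers counting error only. Some items are not reported here.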

Additional observations from a re-analysis of the deposited data

Results flagged for a closer look

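In 11 of the 117 sets of 4 libraries checked (39 genes in 3 groups; Bai1 Tg pos, with 3 libraries, was not checked), 1 library lay far from the others of its group by Dixon's criterion, which flags about 1 in 20 groups by chance. In Bai1 Tg neg 1, Rac1 stood at 250.5 CPM against 282 to 287 CPM in the other libraries of the group, and Akt2 at 133 CPM against 147 CPM in each of the others. Bai1 Tg neg 3 was low for Gulp1 (113 CPM against 131 to 133), Crkl (30.3 CPM against 33.2 to 33.7) and Actr3 (111 CPM against 125 to 127), and high for Vav3 (0.922 CPM against 0.0998 to 0.231). Mertk KO 1 was high for Gulp1 (117 CPM against 102 to 104) and for Rdx (132 CPM against 114 to 115), and Mertk KO 3 for Trio (73.2 CPM against 64.3 to 65.1). Crkl in Mertk WT 1 was low, at 27.3 CPM against 34.5 to 35.2, and Rdx in Mertk WT 2 was high, at 142 CPM against 114 to 117. The cause of these gaps was not tested.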

How the results depend on the processing

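Under 16 alternatives for the Mertk comparison, 14 for Bai1, 15 for the control sets and 17 for the difference of the effects, no gene of the module passed an adjusted p of 0.05. All 2323 log2 fold changes kept their side of the threshold. The lowest adjusted p in each was 0.525 (Dock1, without Mertk KO 3), 0.247 (Akt1, without Bai1 Tg pos 3), 0.217 (Bcar1, without Mertk WT 2) and 0.192 (Akt1, without Bai1 Tg pos 3). Values that were never called changed sign in 28 of 592, 46 of 530, 58 of 555 and 63 of 646 cases. Genes at an unadjusted p under 0.05 numbered 0 to 3, 1 to 6, 0 to 8 and 1 to 4. Counts over all genes varied more: 16 to 77 passed for Mertk, 0 to 85 for Bai1, 0 to 249 for the control sets and 12 to 78 for the difference. The number of module genes at 1 or more was 36 by FPKM and 37 by CPM, and ranking by CPM moved 34 of 39 genes. With the replicate block, 0 genes passed in each comparison (smallest adjusted p = 0.804 for Mertk, 0.970 for Bai1 and 0.639 for the control sets, edgeR), and the numbers of all genes passing were 24, 4 and 106 instead of 30, 2 and 58. Near-identical stretches in other genes were found for 11 of the 39 genes, and exon bases shared with another gene for 8. Among them are Rac1, Arpc1b and Actr3, whose copy Gm8822 held counts equal to 4.58% of its own. Cfl1 shares 354 bases with a transcript of its neighbour Snx32 in the GENCODE transcripts, but the exons counted for the 2 genes share none. Elmo1, Vav3 and Dock4 are limited by depth.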
